A study of Triticum aestivum with 12 samples.

Results

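Flavonoids are plant phenolics with antioxidant activity. Their synthesis runs from chalcones through chalcone isomerase (CHI), which closes the third ring to give a flavanone, to the dihydroflavonols. There flavonol synthase (FLS) makes flavonols, whereas dihydroflavonol reductase leads to the substrates of anthocyanidin synthase (ANS). ANS makes anthocyanidins, from which anthocyanins and, in the coats of seeds, proanthocyanidins are built. FLS and ANS are related dioxygenases that use 2-oxoglutarate.

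The 7 genes described here are the CHI, ANS and FLS genes named by the enzyme numbers of the deposited KEGG annotation, out of 25269 genes in the table and 5723 tested. They comprise 2 CHI, 3 ANS and 2 FLS genes. In all, 19 genes carried one of these enzyme numbers. Of the other 12, there were 3 with 0 counts in every library, 8 that were detected but stayed under the filter (highest value 1.27 FPKM, reads scaled to transcript length and to the library total), and 1 that was tested, the FLS gene TraesCS1B02G332200. The 2 FLS genes chosen are the ones of the 3 tested that passed the test at 20 days in an earlier treatment of these data. Their values at 20 days are therefore a description with no test. So are their changes with age and the part of the interaction that rests on these values. The table holds gene models of chromosomes 1A, 1B and 1D, and flavonoid genes of other chromosomes were not analysed here.

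The RNA came from immature grain of bread wheat (Triticum aestivum), in 4 groups of 3 libraries each. The groups are the mutant line HPm512 at 30 days after anthesis (HP30), the wild-type cultivar Zhoumai22 at 30 days (WT30), HPm512 at 20 days (HP20) and Zhoumai22 at 20 days (WT20). Anthesis is the opening of the flower, and the labels record high antioxidant activity for the mutant; they name no mutated gene. The series sets the 2 cultivars side by side at both ages, and the question taken up here is how far flavonoid enzyme transcripts differed. No label says that replicates came from separate plants, so a p-value covers no more than the scatter among these 12 libraries, part of which may be technical. Whole grain holds several tissues, and fewer cells of a type cannot be told apart from less RNA per cell.

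Library totals were 59.3 M to 73.6 M reads. HP20 replicate 3 stood somewhat apart from its group, at -43.3 on the first principal component of all tested genes against -33.2 and -34.8. All 7 genes passed the filter of at least 1 FPKM in 3 libraries, but TraesCS1A02G221200 passed only through the 3 HP20 libraries and thereby had to differ; comparisons with HP20 are a description for this gene. Fold changes come from edgeR's quasi-likelihood test with TMM (trimmed mean of M-values) factors, which were below 1 in HP30 (0.788 to 0.832) and WT20 (0.920 to 0.968) and above 1 in WT30 (1.09 to 1.15) and HP20 (1.08 to 1.27). A fold change therefore differs from the ratio of the FPKM values, which are scaled to library totals alone. With library totals alone the median of all tested genes moved to -0.51 log2 units for HP30 against WT30 and to 0.32 for HP20 against WT20, against -0.03 and 0.01 with TMM factors. The storage protein genes of the starchy endosperm moved with the groups: their summed level over 12 genes was 28823 to 35092 FPKM in HP30, 5866 to 5978 FPKM in WT30, 21374 to 39460 FPKM in HP20 and 45242 to 46081 FPKM in WT20. Their part in the results below was not tested. Groups often did not overlap: over all tested genes the FPKM of every library of a group lay above or below those of the other in 63.2% for HP30 against WT30, 42.7% for HP20 against WT20, 65.6% for HP30 against HP20 and 72.4% for WT30 against WT20. Non-overlap of a single gene is to be read against these shares.

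The 3 ANS genes form a set with a gene on each of the chromosomes 1A, 1B and 1D. TraesCS1A02G070200 lies on 1A from 53022367 to 53027095, TraesCS1B02G088600 on 1B from 85432023 to 85437171 and TraesCS1D02G072700 on 1D from 53230872 to 53235602, each on the plus strand. Coordinates are those of the table, whose genome build is not given in the sources used here. That these genes are homoeologues, the corresponding copies of the subgenomes, was taken from their gene order and shared KEGG entry, since the table does not state it. How reads shared by such near-identical copies were counted is not given in the sources used here, so the split between copies is uncertain.

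ANS transcripts were lower at 30 days than at 20 days in both lines, and with TMM factors they were higher in the mutant than in wild type at 30 days. TraesCS1A02G070200 had 5.97, 5.42 and 3.50 FPKM in HP30, against 2.08, 3.17 and 3.47 FPKM in WT30. It had 13.5, 15.9 and 15.9 FPKM in HP20, against 17.7, 16.7 and 14.2 FPKM in WT20. Every 30-day library lay below every 20-day library, the HP30 libraries lay just above the WT30 libraries, and the 20-day groups overlapped.

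TraesCS1D02G072700 was second to the 1A copy by mean FPKM in HP30, HP20 and WT20 and above it in WT30. It had 4.92, 3.95 and 4.59 FPKM in HP30, against 3.23, 3.09 and 4.31 FPKM in WT30. It had 7.33, 11.6 and 9.14 FPKM in HP20, against 14.2, 13.3 and 9.30 FPKM in WT20. Mutant and wild type overlapped in FPKM at both ages, by the highest WT30 library and the lowest WT20 library. TraesCS1B02G088600 was the weakest copy, with 1.65, 1.31 and 0.669 FPKM in HP30, against 0.765, 0.729 and 0.508 FPKM in WT30. It had 3.43, 5.29 and 4.02 FPKM in HP20, against 4.75, 4.76 and 3.87 FPKM in WT20. One HP30 library of this copy lay within the WT30 range, and the 20-day groups overlapped.

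Against WT30, the 3 ANS genes were higher in HP30, where 22.9% of all tested genes were called, 13.6% higher. The log2 fold change was 1.24 (SE 0.21, edgeR adjusted p = 0.000728) for TraesCS1A02G070200. It was 1.32 (SE 0.30, edgeR adjusted p = 0.00608) for TraesCS1B02G088600. It was 0.82 (SE 0.19, edgeR adjusted p = 0.00671) for TraesCS1D02G072700. These calls held without any one of the 12 libraries, but they depended on the scaling: with library totals alone TraesCS1D02G072700 was at 0.34 (adjusted p = 0.166), and with equal FPKM totals the 3 genes were at 0.15, 0.24 and -0.29 with no call. With limma on log2(FPKM + 1), TraesCS1B02G088600 (0.38, adjusted p = 0.0881) and TraesCS1D02G072700 (0.28, adjusted p = 0.206) were not called either.

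At 20 days 0 of the 3 ANS genes were called by edgeR, beside 2.29% of all tested genes. The log2 fold changes of HP20 against WT20 were -0.41 for TraesCS1A02G070200 (adjusted p = 0.240), -0.39 for TraesCS1B02G088600 (adjusted p = 0.452) and -0.71 for TraesCS1D02G072700 (adjusted p = 0.0608). The last of these had an unadjusted p of 0.00188, and DESeq2 called it lower (-0.68, adjusted p = 0.0217). The signs of the first pair turned with equal FPKM totals, at 0.26 and 0.31.

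With age the 3 ANS genes fell in both lines, beside 27.9% of all tested genes lower in the mutant and 31.9% lower in wild type. In WT30 against WT20 the log2 fold change was -2.72 for TraesCS1A02G070200 (edgeR adjusted p = 1.36e-07) and -2.04 for TraesCS1D02G072700 (7.33e-07). In HP30 against HP20 it was -1.07 for TraesCS1A02G070200 (edgeR adjusted p = 0.000481) and -0.52 for TraesCS1D02G072700 (0.0285). The last call was lost without HP20 replicate 2 (-0.40, adjusted p = 0.116), HP20 replicate 3 or HP30 replicate 2. TraesCS1B02G088600 was at -2.97 in wild type and -1.26 in the mutant, given with no test. At 30 days this gene reached 1 FPKM only in HP30 replicates 1 and 2, and so it passed the filter through 20-day libraries. From 20 to 30 days the difference between the lines shifted towards the mutant by 1.66, 1.71 and 1.52 log2 units, in the order 1A, 1B and 1D copy (edgeR interaction term, adjusted p = 0.00100, 0.00811 and 0.00103), where 24.0% of all tested genes were called. With TMM factors its sign turned from negative at 20 days, with no call by edgeR, to positive at 30 days. With library totals alone this shift was 0.88, 0.93 and 0.73, and TraesCS1B02G088600 was not called (edgeR adjusted p = 0.0711). That gene was not called with limma on log2(FPKM + 1) either (0.45, adjusted p = 0.135). With equal FPKM totals the shift was -0.11, -0.076 and -0.28 with no call.

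**Figure D1:**
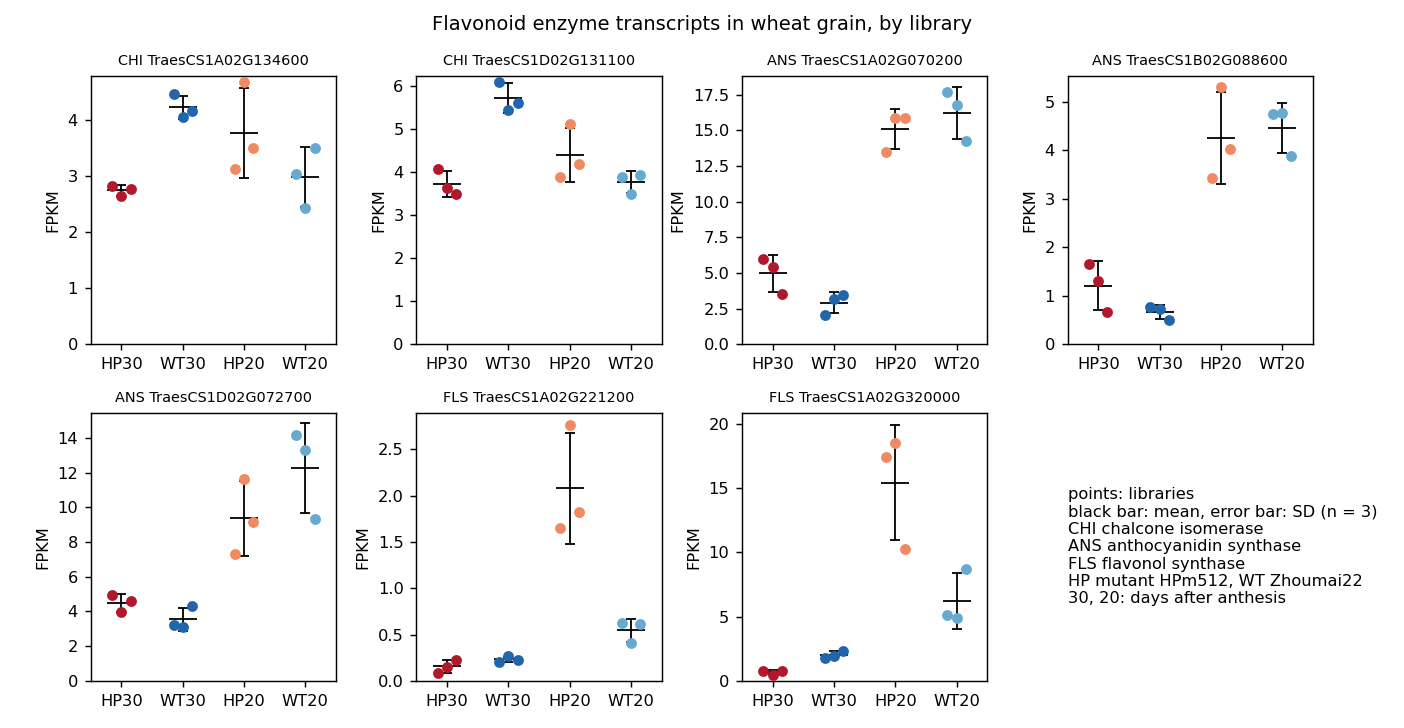
FPKM of the 7 genes in each of the 12 libraries (coloured points) with the group mean and SD (black, n = 3), in one panel per gene with its own axis from 0. The ANS panels are high in both 20-day groups, TraesCS1A02G320000 is highest in HP20 at 10.3 to 18.5 FPKM, and the CHI panels have their highest mean in WT30.

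The FLS genes had the largest falls with age of the 7 in the mutant. This ranking was favoured by their choice for higher values in the mutant at 20 days. TraesCS1A02G320000, on 1A from 510672254 to 510674036 on the plus strand, had 0.743, 0.485 and 0.788 FPKM in HP30, against 1.81, 1.92 and 2.35 FPKM in WT30. It had 17.4, 18.5 and 10.3 FPKM in HP20, against 5.11, 4.86 and 8.71 FPKM in WT20. The FPKM of the 4 groups did not overlap, in the order HP20, WT20, WT30 and HP30 from high to low, beside the shares of 42.7% to 72.4% of all tested genes given above for single comparisons.

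TraesCS1A02G221200, on 1A from 390097717 to 390099586 on the plus strand, followed the same order at a lower level. It had 0.0877, 0.149 and 0.231 FPKM in HP30, against 0.208, 0.266 and 0.224 FPKM in WT30. It had 1.66, 2.76 and 1.82 FPKM in HP20, against 0.630, 0.404 and 0.610 FPKM in WT20. The HP20 libraries stood above all others and the 30-day groups overlapped, at 10 to 29 reads per library. Its last 403 bp overlap TraesCS1A02G221300, a gene of unstated function on the opposite strand with 71 to 204 reads per library, and without a stated strand setting reads of the pair cannot be told apart. The neighbour had up to 189 reads in HP20 and up to 204 reads in WT20, with overlapping ranges.

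In HP20 against WT20 the 2 FLS genes were the only ones of the 7 past the edgeR threshold, as their choice required, and nothing is read from that count; 2.29% of all tested genes were called, 0.419% higher and 1.87% lower. The difference was 0.98 log2 units (SE 0.23) for TraesCS1A02G320000 and 1.58 (SE 0.36) for TraesCS1A02G221200. Each fell back under the threshold in 8 of the 12 fits without 1 library. TraesCS1A02G320000 stayed past it only without HP20, WT20 or WT30 replicate 3 or HP30 replicate 2, and TraesCS1A02G221200 only without HP20 or WT30 replicate 3 or HP30 replicate 1 or 3. Without HP20 replicate 3 the differences were 1.16 and 1.61, and with library totals alone they were 1.30 and 1.903. TraesCS1B02G332200, the FLS gene that was tested and not chosen, was at 0.39 (SE 0.30, edgeR adjusted p = 0.491).

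In HP30 against WT30 TraesCS1A02G320000 was lower, by -1.11 log2 units (SE 0.27, edgeR adjusted p = 0.00913), a call kept in the 12 fits without 1 library. TraesCS1A02G221200 was at -0.07 (SE 0.40, adjusted p = 0.930), and at its counts a difference of this size was not detectable. Together with the ANS genes, 4 of the 7 genes were called at 30 days, 3 higher and 1 lower, beside 22.9% of all tested genes, 13.6% higher and 9.30% lower. With library totals alone the split of calls over all genes was 412 higher and 2595 lower, against 780 higher and 532 lower with TMM factors. Under that scaling 5 of the 7 genes were called, 2 higher and 3 lower. At 20 days the same change of scaling gave 1392 higher and 123 lower, against 24 higher and 107 lower.

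With age both chosen FLS genes were lower in both lines, given with no test because their 20-day values were used for the choice. The log2 fold change of TraesCS1A02G320000 was -3.95 in the mutant (15.5-fold lower) and -1.86 in wild type (3.63-fold lower). For TraesCS1A02G221200 it was -1.46 in wild type, against -0.41 with equal FPKM totals and -0.33 with limma on log2(FPKM + 1). In the mutant it was at -3.11 (SE 0.40), and there the gene also passed the filter only through HP20. The difference between the falls was -2.09 for TraesCS1A02G320000 (SE 0.36) and -1.65 for TraesCS1A02G221200 (SE 0.54), also with no test, since it holds the 20-day contrast on which these genes were chosen. For TraesCS1B02G332200 it was -0.91 (SE 0.46, edgeR adjusted p = 0.176). The third tested FLS gene, TraesCS1B02G332200, averaged 0.439 ± 0.118 FPKM in HP30, 0.872 ± 0.122 in WT30, 9.32 ± 3.95 in HP20 and 5.62 ± 2.29 in WT20 (SD, n = 3 each). With age it was at -3.83 in the mutant and -2.92 in wild type. No test is given for this, because at 30 days it reached 1 FPKM only in WT30 replicate 1 (1.01) and so passed the filter through 20-day libraries. It was called in neither cultivar comparison (at 30 days -0.52, edgeR adjusted p = 0.333).

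**Figure D2:**
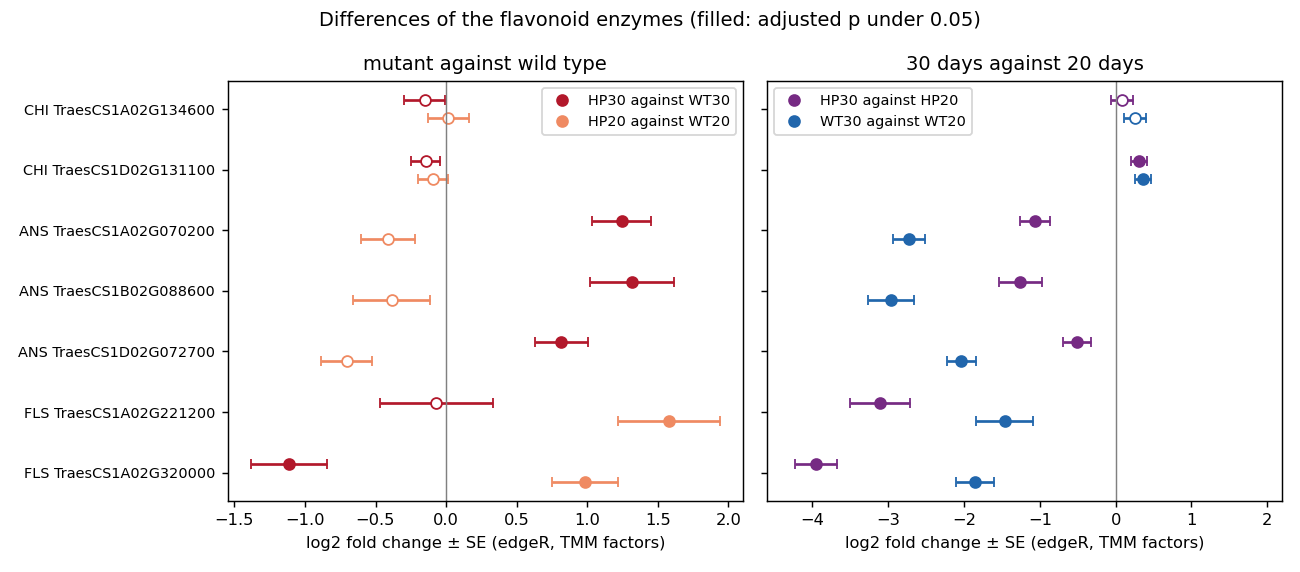
Log2 fold change with its SE for the 7 genes, in mutant against wild type at 30 and 20 days (left) and in 30 against 20 days in each line (right); filled points passed an adjusted p of 0.05. The FLS points at 20 days are filled because the genes were chosen so, and their points with age rest on the same 20-day values. The points with age of TraesCS1B02G088600 are a description, since it passed the filter through 20-day libraries. The ANS genes sit to the right of 0 at 30 days, where they are filled, and to the left at 20 days, where they are open, and TraesCS1A02G320000 is at -1.11 at 30 days and 0.98 at 20 days.

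The ratio of ANS to FLS within a library does not depend on any scaling between libraries. This ratio was chosen after the values were seen and is given as a description with no test. The summed FPKM of the 3 ANS genes was 15.1, 16.9 and 8.60 times that of the 2 FLS genes in HP30, against 3.01, 3.19 and 3.22 times in WT30. It was 1.27, 1.54 and 2.40 times in HP20, against 6.39, 6.61 and 2.94 times in WT20. For these genes the mutant libraries lay above the wild-type libraries at 30 days and below them at 20 days, but the 20-day order rests on the choice of FLS genes. With the third tested FLS gene, TraesCS1B02G332200, in the sum, the ratio was 5.64 to 11.02 in HP30 and 2.00 to 2.46 in WT30, without overlap. It was then 0.870 to 1.64 in HP20 and 1.56 to 3.82 in WT20, and the 20-day groups overlapped. The WT20 library nearest to HP20 was replicate 3, which had the most TraesCS1A02G320000 and the least ANS of its group. Genes with the FLS enzyme number that stayed under the filter were in neither sum. The highest of them in HP30, TraesCS1B02G234600, averaged 0.488 FPKM in HP30 and 0.479 in WT30. The 2 chosen FLS genes together averaged 0.828 and 2.26 FPKM there, so the size of the HP30 ratio depends on which genes are summed.

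Set against the 2 CHI genes, the ANS sum was 1.40 to 1.82 times the CHI sum in HP30 and 0.574 to 0.846 times in WT30, without overlap. It was 3.35 to 3.77 times in HP20 and 3.69 to 5.87 times in WT20, with overlap. The FLS sum was 0.101 to 0.163 times the CHI sum in HP30 and 0.191 to 0.262 times in WT30. It was 1.57 to 2.71 times in HP20 and 0.827 to 1.26 times in WT20. With the third FLS gene it was 0.165 to 0.248 times in HP30 and 0.286 to 0.343 times in WT30, still without overlap, and 2.31 to 3.96 times in HP20 and 1.52 to 2.36 times in WT20, with overlap.

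**Figure D3:**
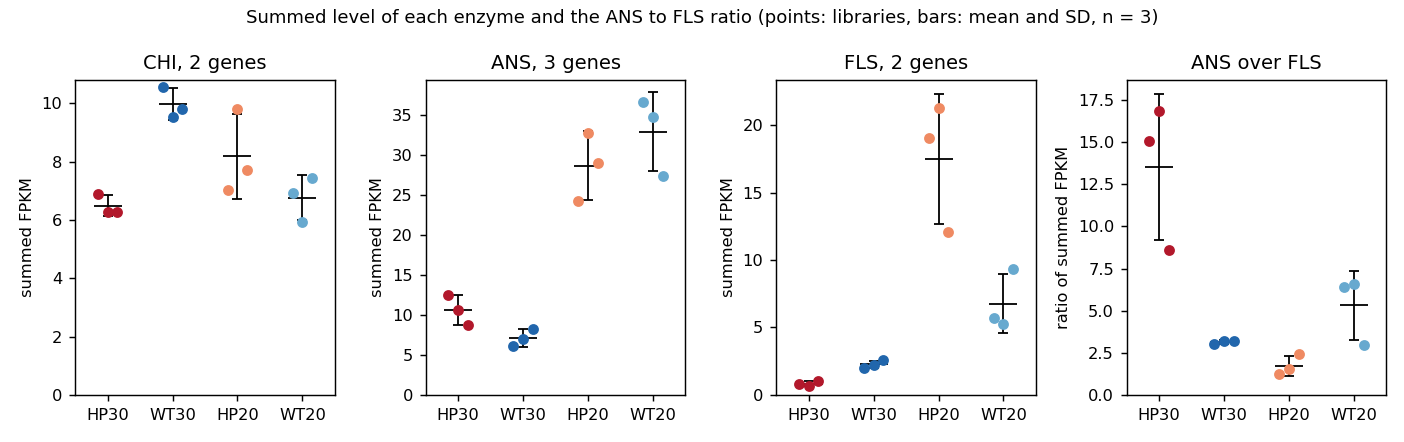
Summed FPKM of the 2 CHI, 3 ANS and 2 FLS genes chosen, and the ratio of ANS to FLS among these genes, in each library (points) with the group mean and SD (black, n = 3). The ANS to FLS ratio is highest in HP30 (8.60 to 16.9) and lowest in HP20 (1.27 to 2.40); with the third tested FLS gene added the 20-day groups overlap (0.870 to 1.64 in HP20 and 1.56 to 3.82 in WT20).

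The CHI genes were the steadiest of the 7, with group means that differed by at most 1.54-fold. TraesCS1A02G134600, on 1A from 202071608 to 202101947 on the minus strand, had 2.83, 2.65 and 2.76 FPKM in HP30, against 4.46, 4.07 and 4.17 FPKM in WT30. It had 3.13, 4.68 and 3.50 FPKM in HP20, against 3.04, 2.44 and 3.50 FPKM in WT20. The mutant libraries lay below wild type at 30 days and overlapped with it at 20 days.

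TraesCS1D02G131100, on 1D from 148655311 to 148686780 on the minus strand, had 4.07, 3.63 and 3.50 FPKM in HP30, against 6.11, 5.45 and 5.62 FPKM in WT30. It had 3.90, 5.12 and 4.20 FPKM in HP20, against 3.90, 3.49 and 3.93 FPKM in WT20. The WT30 libraries stood above every other library and the other groups overlapped.

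The gap of the CHI genes at 30 days depended on the scaling. With TMM factors HP30 against WT30 was -0.15 for both CHI genes (SE 0.15 and 0.11, edgeR adjusted p = 0.502 and 0.361), and with library totals alone it was -0.62 for both (adjusted p = 0.00529 and 0.000874), beside the shift of -0.51 in the median of all tested genes. At 20 days the values were 0.02 for TraesCS1A02G134600 (adjusted p = 0.970) and -0.09 for TraesCS1D02G131100 (adjusted p = 0.683). With age TraesCS1D02G131100 rose by 0.36 in wild type (edgeR adjusted p = 0.00886, lost without WT20 replicate 2 at 0.26) and by 0.31 in the mutant (edgeR adjusted p = 0.0251). The call in the mutant was lost without HP20 replicate 1, any WT20 replicate or any HP30 replicate, with a value down to 0.21, and the sign turned to -0.24 with library totals alone. TraesCS1A02G134600 was at 0.26 in wild type (adjusted p = 0.139) and at 0.09 in the mutant (adjusted p = 0.627; -0.46 with library totals alone).

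The annotation of the CHI genes is weak. Both span over 30 kb (30340 and 31470 bp), and their gene ontology term is calcium ion binding. A set of 3 other genes, described in the table as chalcone-flavonone isomerase family proteins with intramolecular lyase activity, carries no such enzyme number, and 1 of them was tested. That gene, TraesCS1A02G036200, had 1.138, 1.30 and 1.26 FPKM in HP30 and 1.05, 1.24 and 0.725 in WT30. It had 0.408 and 0.147 FPKM in 2 HP20 libraries and 0 counts in the third, against 0.727, 0.445 and 0.211 FPKM in WT20. It was higher with age in the mutant, by 3.23 log2 units (SE 0.78). This is given with no test, because the gene passed the filter only through 30-day libraries and was added after its values were seen. It was not called in wild type (0.88, edgeR adjusted p = 0.297). The difference between the lines was not called either (2.35, edgeR adjusted p = 0.119). The ANS and FLS genes carry only general oxidoreductase and metal ion binding terms, so all 3 enzyme names rest on the KEGG entry.

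Over time 6 of the 7 genes were called in each line, 1 higher and 5 lower. Of the lower ones, TraesCS1A02G221200 in the mutant had to differ by the filter. TraesCS1B02G088600 passed the filter through 20-day libraries, which favours a fall. The 2 FLS genes among the lower ones were chosen on their 20-day values, so nothing is read from their calls. The background was high: 57.8% of all tested genes were called in HP30 against HP20 (29.9% higher and 27.9% lower) and 63.7% in WT30 against WT20 (31.8% higher and 31.9% lower). With library totals alone the splits over all genes were 772 higher and 2708 lower in the mutant, against 1711 and 1597 with TMM factors, and 2269 higher and 1469 lower in wild type, against 1819 and 1826. The median log2 fold change of the 7 genes was -1.07 in the mutant and -1.86 in wild type, beside 0.08 and -0.01 over all tested genes. At 30 days the median of the 7 was -0.07 beside -0.03, and at 20 days -0.09 beside 0.01. The interaction passed the threshold in 5 of the 7 genes, the 3 ANS genes up and the 2 FLS genes, chosen on its 20-day part, down. Of all tested genes 24.0% were called, 13.1% higher and 10.9% lower (with library totals alone 361 higher and 2994 lower, against 751 and 622).

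**Figure D4:**
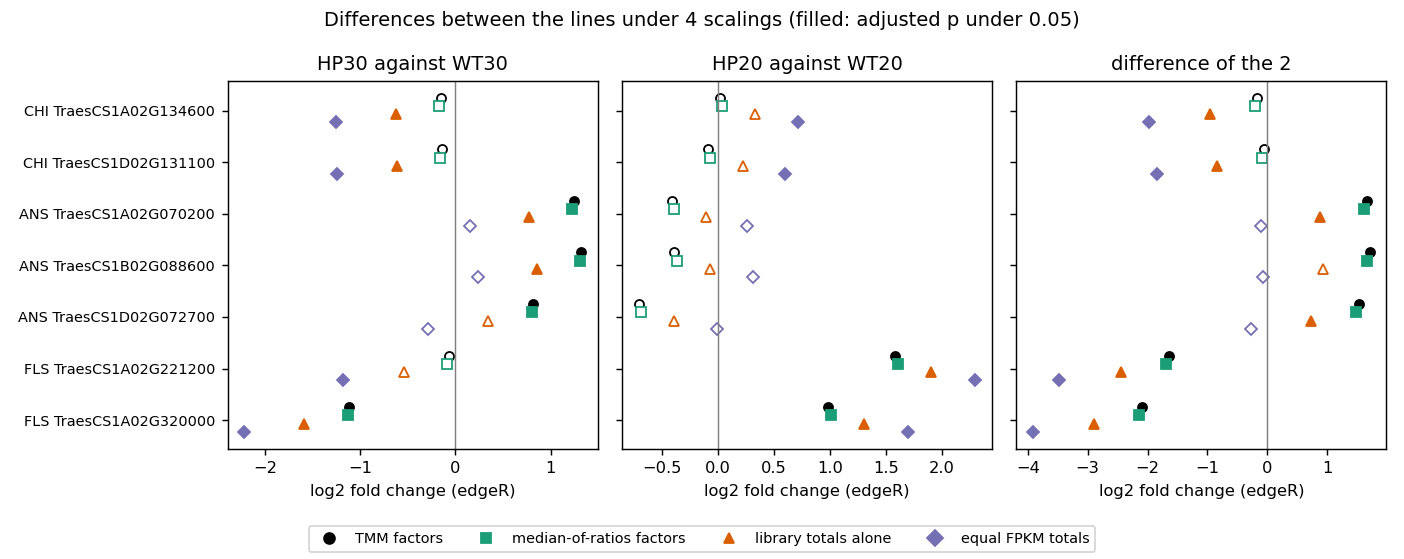
Log2 fold change of the 7 genes for HP30 against WT30, HP20 against WT20 and the difference of these 2, under TMM factors, median-of-ratios factors, library totals alone and equal FPKM totals; filled points passed an adjusted p of 0.05. TraesCS1A02G320000 keeps its sign in each panel under the 4 scalings and its call at 30 days, whereas the ANS genes lose their 30-day call with equal FPKM totals (0.15, 0.24 and -0.29).

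Shares of the copies do not depend on any scaling between libraries, but they do depend on the scaling to transcript length. With shares of read counts instead of FPKM, 5 group means moved by more than their SD, each in the CHI set, and 31 did not. Of the ANS sum the 1A copy held 46.1% ± 5.57 in HP30, 40.5% ± 5.68 in WT30, 52.9% ± 3.90 in HP20 and 49.4% ± 2.13 in WT20. The 1D copy held 42.9% ± 8.34 in HP30, 49.8% ± 4.85 in WT30, 32.4% ± 2.70 in HP20 and 37.0% ± 2.61 in WT20. The 1B copy held 11.01% ± 2.96 in HP30, 9.72% ± 3.30 in WT30, 14.7% ± 1.25 in HP20 and 13.6% ± 0.587 in WT20 (SD, n = 3 each). Every 30-day library gave the 1D copy a larger share than every 20-day library of the same line, with 37.0% to 52.4% in HP30, 44.3% to 53.2% in WT30, 30.3% to 35.4% in HP20 and 34.0% to 38.7% in WT20.

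The CHI set, completed by TraesCS1B02G148200, kept nearly the same shares in all groups. Its 1D copy held 54.0% ± 0.947 in HP30, 53.5% ± 0.949 in WT30, 51.3% ± 2.21 in HP20 and 52.0% ± 1.98 in WT20, and its 1B copy 5.13% to 7.05% on average. By read counts the 1D copy held 51.8% in HP30, 51.3% in WT30, 49.1% in HP20 and 49.8% in WT20. For the FLS set of TraesCS1A02G320000, the 1A copy held 60.3% ± 10.2 in HP30, 69.0% ± 5.45 in WT30, 60.9% ± 4.66 in HP20 and 50.9% ± 3.33 in WT20 (SD, n = 3 each). The 1A copy's share was larger in HP20 (55.6% to 64.3%) than in WT20 (47.9% to 54.5%) in every library, where the 1A gene was chosen for its 20-day difference, and the 1B copy TraesCS1B02G332200 held most of the rest. The 1D copy, TraesCS1D02G319700, had 0 counts in the HP30 libraries and held 3.16% in HP20 and 3.89% in WT20.

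**Figure D5:**
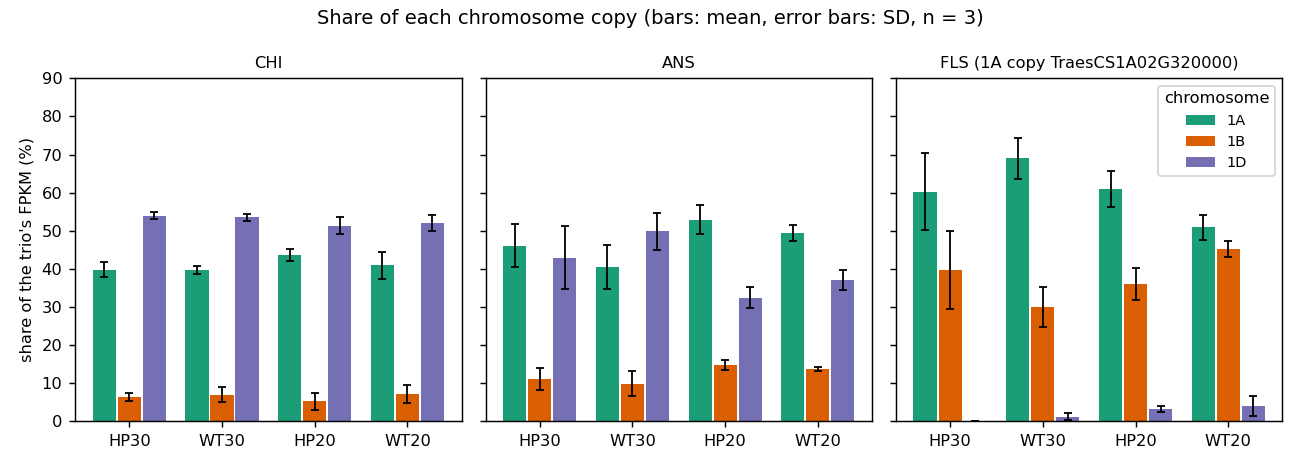
Share of each chromosome copy in the summed FPKM of the CHI, ANS and FLS sets by group (bars, mean; error bars, SD, n = 3). The 1D copy of ANS takes 42.9% in HP30 and 49.8% in WT30, against 32.4% in HP20 and 37.0% in WT20, while the CHI shares stay near 40% for 1A and above 50% for 1D.

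Phenylalanine ammonia-lyase and chalcone synthase had no gene past the filter on these chromosomes. Of 13 genes for phenylalanine ammonia-lyase, which starts phenylpropanoid synthesis, 0 passed the filter (highest value 0.223 FPKM), and of 14 genes for chalcone synthase, which makes the substrate of CHI, 0 passed (highest 0.188 FPKM). Of 5 genes for 4-coumarate-CoA ligase, which activates the phenylpropanoid acids, 2 were tested and both were lower with age in both lines. Both passed the filter only through 20-day libraries, so their changes with age are a description with no test. TraesCS1B02G211300 averaged 0.155 ± 0.016 FPKM in HP30, 0.211 ± 0.062 in WT30, 1.44 ± 0.497 in HP20 and 1.95 ± 0.157 in WT20 (SD, n = 3 each). Its log2 fold change with age was -2.64 in the mutant and -3.41 in wild type.

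Of 3 genes for flavonoid 3'-hydroxylase, which adds a hydroxyl group to the B ring, 2 were tested and both were lower with age in both lines. TraesCS1B02G476400 passed the filter only through 20-day libraries, and TraesCS1A02G442300 reached 1 FPKM at 30 days only in WT30 replicate 1. Their changes with age are therefore a description with no test. TraesCS1A02G442300 averaged 0.662 ± 0.237 FPKM in HP30, 0.916 ± 0.370 in WT30, 3.95 ± 0.529 in HP20 and 3.42 ± 0.404 in WT20 (SD, n = 3 each). TraesCS1B02G476400 averaged 0.182 ± 0.110 FPKM in HP30, 0.814 ± 0.151 in WT30, 1.72 ± 0.632 in HP20 and 1.35 ± 0.137 in WT20. It was lower in HP30 than in WT30 by -1.66 log2 units (edgeR adjusted p = 0.00719), and the difference between the lines changed by -1.68 (edgeR adjusted p = 0.0318), both values opposite in sign to the ANS genes. Its change with age in wild type was -0.96, against -0.72 with library totals alone and 0.10 with equal FPKM totals.

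Of 29 genes for glucosyltransferases that attach sugar to flavonoids, 4 were tested. TraesCS1B02G362100 was higher with age, by 2.13 log2 units in the mutant and 1.79 in wild type. This is given with no test, because at 20 days it reached 1 FPKM only in WT20 replicate 3 and so passed the filter through 30-day libraries. TraesCS1B02G361400 fell, at -1.48 in the mutant and -1.04 in wild type (edgeR adjusted p at most 0.000556). The fall of TraesCS1B02G361400 in wild type was 0.02 with equal FPKM totals. No gene was found in the table for flavanone 3-hydroxylase, dihydroflavonol reductase, anthocyanidin reductase or leucoanthocyanidin reductase, by the enzyme numbers or KEGG entries looked for.

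The genes most like each of the 7 across the 12 libraries, by Pearson correlation of log2 values on TMM-scaled FPKM plus 1, are a description, since all share the age and line differences of the same libraries. For TraesCS1A02G320000 they were TraesCS1B02G309300, a DNA replication helicase (r = 0.986), TraesCS1B02G443700, an amidase of aminoacyl-tRNA synthesis (r = 0.984), and TraesCS1B02G269400, a tubulin beta chain (r = 0.983). For TraesCS1A02G221200 they were TraesCS1A02G143700 (r = 0.961) and TraesCS1B02G161100 (r = 0.950), both with a term for meiotic chromosome segregation, and the RNA polymerase subunit TraesCS1D02G108700 (r = 0.954). For TraesCS1A02G070200 they were TraesCS1D02G245800, TraesCS1B02G478900 and TraesCS1A02G351300 (r = 0.989 to 0.991), of which the second is a nucleoside diphosphate kinase by its KEGG entry.

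For TraesCS1B02G088600 the list held a Wali3 protein, TraesCS1D02G265900 (r = 0.985), and proline dehydrogenase, TraesCS1B02G223300 (r = 0.985). For TraesCS1D02G072700 it held TraesCS1A02G045800, with a nutrient reservoir term (r = 0.973), and the long-chain alcohol oxidase TraesCS1D02G151500 (r = 0.968). Genes with r above 0.9 numbered 209 to 504 for the ANS genes, 403 and 49 for the FLS genes and 10 and 0 for the CHI genes. Among the 7, r was 0.929 to 0.976 between ANS copies, 0.901 between the FLS genes, 0.800 between the CHI genes and 0.476 to 0.725 between ANS and FLS.

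Tissue markers are given beside these patterns because whole grain was sampled. Green pericarp markers, summed over 24 genes of which 8 were at 0 in every library, were at 1.10 to 2.61 FPKM in HP30, 0.214 to 0.691 in WT30, 4.78 to 9.10 in HP20 and 9.48 to 11.7 in WT20, an order of groups shared with the ANS genes. The embryo lectin gene was at 44.4 to 59.7 FPKM in HP30, 207 to 212 in WT30, 14.01 to 69.6 in HP20 and 15.7 to 16.7 in WT20. Markers of aleurone and embryo, summed over 9 genes, were at 2701 to 4517 FPKM in HP30, 2993 to 3193 in WT30, 1326 to 1899 in HP20 and 2570 to 2749 in WT20. This sum does not show each marker. With age 7 of the 9 were called higher and 0 lower in the mutant, and 6 higher and 2 lower in wild type. Their median log2 fold changes were 4.23 and 4.77. Of all tested genes 29.9% were higher and 27.9% lower in the mutant, and 31.8% and 31.9% in wild type. The part of these tissues in the ANS, FLS and CHI values was not tested.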

How the data were processed

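RNA from immature grain was sequenced in 12 libraries, 3 for each of 4 groups. Trizol was used for RNA and an Illumina TruSeq kit for libraries, per the labels' protocols. The submitters' processing notes list cutadapt 1.9 and FastQC. No aligner, counter, strand setting or genome build was stated there. The authors deposited whole-number read counts and FPKM per gene in a table of the whole series, per the file headers; FPKM is 1e-04 where the deposited count is 0. Of 25270 lines, 1 was incomplete and left out.

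The table holds part of each library, so library totals were recovered from counts and FPKM of 43 non-coding genes with at least 100 counts (median spread 0.0931%). Genes with FPKM of at least 1 in 3 or more libraries, 5723 in all, were fitted in edgeR 4.0.16 (R 4.3.3) to the deposited counts by the quasi-likelihood test, with TMM factors, a mean for each group and all 12 libraries; calls were made at a Benjamini-Hochberg adjusted p under 0.05. The common biological coefficient of variation was 21.2%. SE is the absolute log2 fold change divided by the square root of F. Alternatives were other scalings and filters, DESeq2 1.42.0, limma 3.58.1 on log2(FPKM + 1) and log2(FPKM + 0.1), only the libraries compared, a replicate block, and fits without each library in turn. Scripts were first tested on simulated data. The interaction is the 30-day difference minus the 20-day difference.

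The 7 genes, the pathway and marker lists and the tests were chosen with earlier results of these data known. Named genes are the 7, up to 3 called genes per pathway list and comparison with the largest change and mean FPKM of at least 1, and the 3 genes most correlated with each of the 7; only some of these are printed. TraesCS1A02G036200, TraesCS1D02G319700, TraesCS1B02G148200 and TraesCS1A02G221300 were added after their values were seen, and so were the ratios within a library and their form with the third tested flavonol synthase gene. Genes are named as in the table, because 0 of its identifiers were found in the reference table.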

Additional observations from a re-analysis of the deposited data

Results flagged for a closer look

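The mutant's difference from wild type was not the same at the 2 ages for the 3 anthocyanidin synthase genes, by the interaction term of edgeR over all tested genes, of which 24.0% were called. The difference was 1.66 log2 units further towards the mutant at 30 days than at 20 days for the anthocyanidin synthase TraesCS1A02G070200, 1.71 for TraesCS1B02G088600 and 1.52 for TraesCS1D02G072700. It was -2.09 for the flavonol synthase TraesCS1A02G320000 and -1.65 for TraesCS1A02G221200, both past the threshold but given as a description, since these genes were chosen for their 20-day difference and TraesCS1A02G221200 passed the filter only through HP20. For TraesCS1A02G320000 the values were -1.11 at 30 days and 0.98 at 20 days. The TMM factors were under 1 in HP30 and WT20 and over 1 in WT30 and HP20, so they move with the interaction; their part in it was not tested, and the values under other scalings are given with the alternatives.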

How the results depend on the processing

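Of 763 values of the 7 genes under alternatives, 653 kept direction and call, 62 lost the call, 24 gained one and 24 turned in sign. Genes called at 20 days numbered 131, against 1515 with library totals alone, 3435 with equal FPKM totals, 535 with DESeq2, 1685 with limma on log2(FPKM + 1), 1415 on log2(FPKM + 0.1), 2 with only the libraries compared and 21 with the replicate block; without 1 library the range was 11 (HP20 replicate 1) to 414 (HP20 replicate 3). Of the 7 genes, 2 were called at 20 days, against 4 with equal FPKM totals, 1 with no filter and 0 with a filter of 0.5 FPKM, with only the libraries compared and with the replicate block (0 to 2 without 1 library). At 30 days 1312 genes were called, against 3007 with library totals alone, 4559 with equal FPKM totals and 3028 and 3026 with limma (997 to 1433 without 1 library). For the interaction 1373 were called, against 3355, 4664, 3488 and 3375 (1102 to 1513 without 1 library). With equal FPKM totals the split was 3368 higher and 67 lower at 20 days, 238 and 4321 at 30 days, 515 and 2955 with age in the mutant, 3563 and 767 in wild type and 196 and 4468 for the interaction. The cause of these differences was not tested.

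Signs turned as follows. HP20 against WT20 for TraesCS1D02G131100 was 0.22 with library totals alone, 0.60 with equal FPKM totals, and 0.17 and 0.21 with limma. With equal FPKM totals it was 0.26 for TraesCS1A02G070200 and 0.31 for TraesCS1B02G088600, and HP30 against WT30 was -0.29 for TraesCS1D02G072700. HP30 against HP20 was -0.46, -0.66, -0.34 and -0.42 for TraesCS1A02G134600 and -0.24, -0.43, -0.19 and -0.23 for TraesCS1D02G131100 with library totals alone, equal FPKM totals and limma at the larger and smaller pseudocount. The interaction with equal FPKM totals was -0.11 for TraesCS1A02G070200, -0.076 for TraesCS1B02G088600 and -0.28 for TraesCS1D02G072700. Without 1 library TraesCS1A02G134600 ranged from -0.12 to 0.14 for HP20 against WT20 and from -0.027 to 0.21 for HP30 against HP20. TraesCS1A02G221200 ranged from -0.46 to 0.20 for HP30 against WT30, and TraesCS1D02G131100 from -0.13 to 0.0026 for the interaction.

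The replicate numbers did not pair the libraries: the deviations of 18 same-numbered pairs correlated at -0.16 to 0.32, and 2 of them were over 0.1. Under the replicate block the 20-day calls of TraesCS1A02G221200 (adjusted p = 0.0747) and TraesCS1A02G320000 (0.0700) and the interaction of TraesCS1A02G221200 (0.0605) were lost. Depth limits TraesCS1A02G221200 most, with 10 to 29 reads per library at 30 days.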

Other observations

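In the lignin branch, which shares its precursors with flavonoids, 6 of 20 genes were tested. All were genes for hydroxycinnamoyltransferase or cinnamoyl-CoA reductase, since none was found for cinnamyl alcohol dehydrogenase or the O-methyltransferases looked for. With age 4 of them were higher and 0 lower in the mutant, and 3 were higher and 1 lower in wild type, beside 29.9% higher and 27.9% lower of all tested genes in the mutant and 31.8% and 31.9% in wild type. The lower one, TraesCS1A02G417800, passed the filter only through 20-day libraries, which favours a fall. A pair of neighbouring genes on 1D for hydroxycinnamoyltransferase, which makes the esters that lead to lignin, were higher with age in both lines. One of the pair, TraesCS1D02G009600, passed the filter only through 30-day libraries, which favours a rise. TraesCS1D02G009500 had 2.75, 1.61 and 2.18 FPKM in HP30, 5.61, 6.06 and 5.22 in WT30, 1.39, 1.09 and 0.223 in HP20 and 0.941, 1.17 and 0.621 in WT20. Its log2 fold change with age was 1.82 in the mutant and 2.38 in wild type (edgeR adjusted p = 0.00258 and 0.000286). Of the 6 genes, 1 was higher in HP30 than in WT30, beside 13.6% of all tested genes.

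Of 7 genes described as MYB or bHLH factors, families that include regulators of flavonoid genes, 6 were tested. With age 3 were higher and 3 lower in each line, where 57.8% of all tested genes were called in the mutant and 63.7% in wild type. Of the lower ones, TraesCS1D02G268900 and TraesCS1A02G129300 passed the filter only through 20-day libraries. The other, TraesCS1B02G287700, reached 1 FPKM at 30 days only in WT30 replicates 1 and 3. Their changes with age are therefore a description with no test. TraesCS1D02G268900, an R2R3-MYB protein, averaged 0.097 ± 0.085 FPKM in HP30, 0.118 ± 0.118 in WT30, 2.10 ± 0.197 in HP20 and 1.83 ± 0.411 in WT20 (SD, n = 3 each), and TraesCS1B02G232800, described as MYBS3, averaged 21.1 ± 2.45 in HP30, 35.0 ± 1.46 in WT30, 10.7 ± 1.63 in HP20 and 7.30 ± 0.913 in WT20. For TraesCS1B02G232800 the difference between the lines changed by -0.49 log2 units with age (edgeR interaction term, adjusted p = 0.0445). Of 33 other genes for dioxygenases that use 2-oxoglutarate, 13 were tested, and 3 were higher and 0 lower in HP30 than in WT30, beside 13.6% higher and 9.30% lower of all tested genes. One of them, TraesCS1D02G168600 (0.33, edgeR adjusted p = 0.0361), averaged 6.19 FPKM in HP30 and 6.86 FPKM in WT30, and it was not called with median-of-ratios factors (adjusted p = 0.0503) or with library totals alone (-0.15). The prolyl hydroxylase TraesCS1B02G186400 was another (1.144, edgeR adjusted p = 3.63e-05; 0.04 with equal FPKM totals).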
